A study of Mus musculus with 4 samples.

Results

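The 8 genes described here take part in reticulocyte maturation, mitophagy or ubiquitin handling: Bnip3l, Ulk1, Fbxo7, Trim58, Ubb, Gabarapl2, Map1lc3b and Usp15. They were taken from the table by gene symbol, a choice made with earlier results of these data known, and all 8 were found with a value in every library, among 17823 genes with values of 23136 listed. The blood of C57BL/6 mice aged 12 months, which the sample labels call adult, was profiled by RNA sequencing. Mice of the treated group were given naringenin (Nar), a flavonoid, by tail-vein injection at 20 mg/kg, and control mice (Ctrl) were given PBS. The labels give 30 days for both, and no transgene or deletion is named for either. Each group had 2 libraries, numbered 1 and 3, and since nothing in the labels ties a library to its own animal, the p-values below measure only the spread between these libraries.

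A reticulocyte is the enucleated precursor of the red blood cell, and it clears its mitochondria, ribosomes and many proteins before it becomes an erythrocyte. Mitochondria are removed by mitophagy: the receptor Bnip3l (also called NIX) sits on the outer mitochondrial membrane and binds ATG8 proteins, the LC3 and GABARAP proteins that coat the growing autophagosome, while the kinase Ulk1 starts the process. Proteins are marked with ubiquitin by ligases and passed to the proteasome, and deubiquitinases take the mark off again. In blood, reticulocytes carry transcripts of these genes, and most of the genes are also used by leukocytes and platelets.

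The levels of the 8 genes, in FPKM (fragments per kilobase of transcript relative to all mapped fragments, so comparable per length between genes), spanned more than 3 orders of magnitude. Ubb was highest in every library, followed by Bnip3l, Gabarapl2, Map1lc3b, Usp15 and Fbxo7 in that order in every library. The ranges over the 4 libraries did not overlap between any of these neighbours. The smallest ratio between these neighbours in any library was that of Map1lc3b to Usp15 in Nar 1 (1.05), and in the other 3 libraries the smallest was that of Bnip3l to Gabarapl2, between 1.28 and 1.61. Only at the bottom of the order did the ranges overlap. Ulk1 stood above Trim58 in the controls, by 2.89 times in Ctrl 1 and 1.58 times in Ctrl 3, and below it in the Nar libraries, at 0.733 times in Nar 1 and 0.713 times in Nar 3. That reversal is a ratio within each library and does not depend on how libraries are scaled, but with 2 libraries against 2 an exact two-sided permutation test cannot go below p = 0.33. Among the tested genes of each library, Ubb, Bnip3l and Gabarapl2 lay at or above the 98.95th percentile of level, while Ulk1 lay between the 37.5th and the 55.9th.

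**Figure D1:**
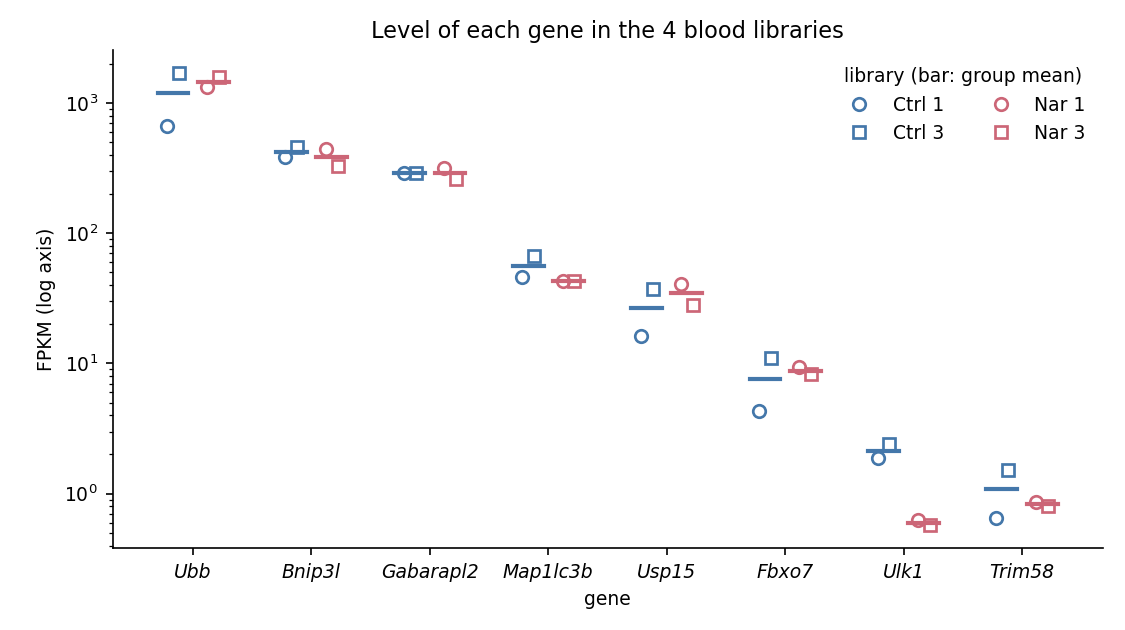
Level of each gene in FPKM (vertical log axis) in the 2 control and 2 Nar libraries, with symbols for the libraries and a bar at each group's mean. Ubb, Fbxo7, Usp15 and Trim58 have 1 low control library (Ctrl 1), whereas for Ulk1 both Nar libraries, at 0.63 and 0.57, lie below both controls.

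How the groups compare depends on the scale. Haemoglobin transcripts made up 95.1% and 92.6% of the summed FPKM in Ctrl 1 and Ctrl 3, and 95.7% and 96.4% in Nar 1 and Nar 3, above both controls, and all other genes share the rest. Of 10 tested haemoglobin genes 2 were called higher by limma. Over the 5339 genes whose mean FPKM reached 0.5, the median log2 fold change of Nar against control was -1.07 on the deposited scale and -0.061 once each library was divided by its median ratio to the others (the median-of-ratios scale), where a typical gene is level. On the deposited scale limma, with Benjamini-Hochberg adjustment over all tested genes, called 1 of the 8 genes, Ulk1, which was lower. Over all tested genes 39.6% were called lower and 0.187% higher. The 2 groups did not overlap for 2 of the 8, Ulk1 and Map1lc3b, in which both Nar libraries lay below both controls, as they did in 78.3% of all tested genes; the opposite order held for 0 of the 8 and for 1.27% of all tested genes. On the median-of-ratios scale limma called 0 of the 8, and it called 0.468% of all tested genes. At an unadjusted p under 0.05, 5 of the 8 were higher with Nar on that scale, as were 6.18% of all tested genes. There, both Nar libraries lay above both controls for 7 of the 8, all but Ulk1, and for 18.6% of all tested genes; the genes share the same scaling factors, so these are not separate observations.

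Bnip3l, the mitochondrial receptor, was listed at 385 FPKM (Ctrl 1) and 463 (Ctrl 3) in the controls, and at 444 (Nar 1) and 331 (Nar 3) with Nar. The groups overlapped, with both the lowest and the second highest value in Nar. The control mean was 424 ± 54.8 FPKM and the Nar mean 388 ± 79.9 FPKM (SD, n = 2 each), for a log2 fold change of -0.14 (95% interval -1.09 to 0.81, limma adjusted p = 0.777). On the median-of-ratios scale the sign turned, to 0.97 (adjusted p = 0.345). Bnip3, the related receptor of the same family, had 0.27 and 0.35 FPKM in the controls and 0.1 in each Nar library, too low to be tested. Bnip3l therefore held at least 99.92% of the summed FPKM of the pair in each library. Among 679 other genes whose mean FPKM reached 10, those whose levels moved most like Bnip3l over the 4 libraries, by the distance between mean-centred log2 values, included Sp100 (distance 0.131), Aldh1a1 (0.150) and Cript (0.165). Aldh1a1, an aldehyde dehydrogenase, was listed at 142 and 195 FPKM in the controls against 167 and 127 with Nar. With 4 libraries such a likeness is a description only. Bnip3l lies on chr14:66985238-67008877 on the minus strand (RefSeq, GRCm38.p6). Of the 50-base windows of its transcript, 25.1% also occur in the pseudogene Bnip3l-ps, which is not listed in the table. For Bnip3, 62.4% of the windows also occur in some of 6 other genes, so its level and the share of the pair are uncertain. Among the 8 genes, Gabarapl2 was closest to Bnip3l (distance 0.248) and Ubb farthest (distance 1.08) of the 4 others whose mean FPKM reached 10.

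Ulk1, the kinase at the head of the autophagy cascade, was listed at 1.88 FPKM in Ctrl 1 and 2.41 in Ctrl 3, against 0.63 in Nar 1 and 0.57 in Nar 3. Every Nar value was below every control value, and the replicates within a group lay close together. The mean went from 2.15 ± 0.375 FPKM (SD, n = 2) to 0.60 ± 0.0424 (SD, n = 2). Ulk1 fell by 1.67 on the log2 scale (95% interval -2.45 to -0.89, limma adjusted p = 0.0138), a level of 0.314 times that of controls. Relative to the median of all tested genes the difference was -0.60, and 12.7% of the tested genes had a lower fold change. On the median-of-ratios scale it was -0.66 with an adjusted p of 0.435, so the call did not hold on that scale. Nor did it hold when any of the 4 libraries was left out, where the log2 fold change stayed between -1.84 and -1.50 (adjusted p from 0.0682 to 0.107), with haemoglobin genes removed (-1.26, adjusted p = 0.137) or without the filter on low values (-1.67, adjusted p = 0.113). Ulk2, its close relative, was listed at 0.57 and 0.36 FPKM in the controls against 0.44 and 0.37 with Nar, with overlapping groups and a mean too low to be tested. The share of Ulk1 in the summed FPKM of the pair, which no scaling of libraries can move, was 76.7% and 87.0% in controls and 58.9% and 60.6% with Nar. That is a difference of -22.1 percentage points (exact two-sided permutation p = 0.33, the smallest this design allows). Ulk1 lies on chr5:110784489-110810120 on the minus strand (RefSeq, GRCm38.p6), its transcript has 28 exons, and none of its 50-base windows is shared with another gene.

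Ulk1 is also used in leukocytes, and blood cell markers differed between these groups. All 12 tested neutrophil markers of 13 listed were called lower with Nar by limma (median log2 fold change -3.67, and -2.57 on the median-of-ratios scale), with summed levels of 1746 and 1442 FPKM in controls and of 106 and 165 FPKM with Nar, and Fcnb was the marker at 0 in a library. Monocyte markers were called lower for 7 of 10 (median log2 fold change -1.90, and -0.87 on the median-of-ratios scale). Their sums were 382 and 476 FPKM in controls and 159 and 103 FPKM with Nar. Over all tested genes 39.6% were called lower on the deposited scale, to which both counts belong. In bulk blood RNA, fewer cells of a type cannot be told apart from less RNA per cell. The part of these cells in the Ulk1 difference was not tested.

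Gabarapl2 and Map1lc3b encode ATG8 proteins, which are coupled to lipid in the autophagosome membrane and bind receptors such as Bnip3l. Gabarapl2 had the smallest difference between the groups of the 8 on the deposited scale, at 289 FPKM (Ctrl 1) and 288 (Ctrl 3) in the controls, and at 318 (Nar 1) and 259 (Nar 3) with Nar. Both controls lay between the Nar values. Its log2 fold change was -0.0065 (95% interval -0.97 to 0.96, limma adjusted p = 0.990), which leaves room for a change of nearly 2-fold either way, and it turned to 1.10 on the median-of-ratios scale (adjusted p = 0.285). Map1lc3b, which encodes LC3B, was listed at 45.7 FPKM (Ctrl 1) and 66.5 (Ctrl 3) in the controls, and at 42.9 (Nar 1) and 42.7 (Nar 3) with Nar. Both Nar values were below both controls, by a small margin against Ctrl 1. The log2 fold change was -0.36 (95% interval -1.50 to 0.78, limma adjusted p = 0.534), was -0.63 without Ctrl 1 and -0.095 without Ctrl 3, and turned to 0.74 on the median-of-ratios scale (adjusted p = 0.617).

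The coding starts of Gabarapl2 and its relatives show how far reads can be told apart between them. These are the first 60 coding bases, 5′ to 3′, from GENCODE transcripts on GRCm38, with capitals where a base differs from Gabarapl2.
Gabarapl2: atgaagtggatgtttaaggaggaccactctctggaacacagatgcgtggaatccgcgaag
Gabarap: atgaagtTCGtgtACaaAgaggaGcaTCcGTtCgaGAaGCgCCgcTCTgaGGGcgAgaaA
Gabarapl1: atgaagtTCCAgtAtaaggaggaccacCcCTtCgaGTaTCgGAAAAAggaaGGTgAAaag
Over the whole coding length of 354 bases, Gabarap matched Gabarapl2 at 61.9% of positions and Gabarapl1 at 63.8%. No 50-base stretch of the Gabarapl2 transcript was shared with another gene of the family; 17.0% of its 50-base windows were shared, all with 4 predicted genes (Gm3724, Gm5829, Gm6051 and Gm6059) that are not listed in the table. Gabarapl2 lies on chr8:111940703-111952915 on the plus strand (RefSeq, GRCm38.p6) and its transcript has 4 exons. Map1lc3b lies on the same chromosome, at chr8:121590438-121598760, also on the plus strand, and 13.8% of its windows are shared with some of 295 other genes.

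Within the ATG8 family, Gabarapl2 carried most of the transcript in every library. Its share of the summed FPKM of the 5 family genes was 74.5% (Ctrl 1) and 62.5% (Ctrl 3) in the controls, and 77.2% (Nar 1) and 74.8% (Nar 3) with Nar, so that the Nar values exceeded both controls, Ctrl 1 only narrowly (exact permutation p = 0.33). Map1lc3b held between 10.4% and 14.4%, with overlapping groups. Gabarap, a further GABARAP protein, was listed at 40.4 and 80.0 FPKM in the controls against 42.2 and 36.0 with Nar. Its share was 10.4% and 17.4% in controls and 10.2% and 10.4% with Nar. Gabarapl1 was listed at 11.2 and 24.6 FPKM in the controls against 8.06 and 7.80 with Nar, a log2 fold change of -1.06 (limma adjusted p = 0.124) close to the median of all tested genes that was 0.044 on the median-of-ratios scale. Map1lc3a, encoding LC3A, was lowest, at 1.43 and 1.92 FPKM in the controls against 0.87 and 0.75 with Nar (log2 fold change -0.95, limma adjusted p = 0.0555, and 0.066 on the median-of-ratios scale). None of the 5 passed the test.

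**Figure D2:**
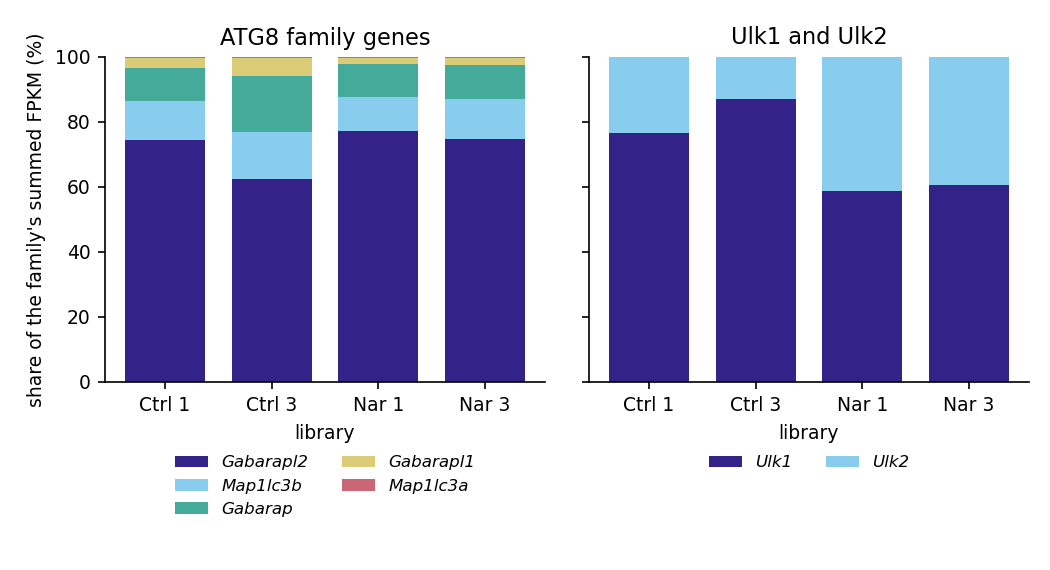
Share of each gene in the summed FPKM of its family (vertical axis, %, from 0) in each library, stacked for the ATG8 family and the pair Ulk1 and Ulk2. Gabarapl2 is lowest in Ctrl 3 (62.5%), and Ulk1 is lower in both Nar libraries (58.9% and 60.6%) than in both controls.

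Ubb is one of the genes that make ubiquitin, and its product is a chain of ubiquitin units that is cut apart after translation. It was listed at 667 FPKM (Ctrl 1) and 1698 (Ctrl 3) in the controls, and at 1326 (Nar 1) and 1589 (Nar 3) with Nar. The controls differed by 2.55 times, and both Nar libraries lay between them. The control mean was 1183 ± 729 FPKM and the Nar mean 1458 ± 186 FPKM (SD, n = 2 each), for a log2 fold change of 0.45 (95% interval -0.59 to 1.49, limma adjusted p = 0.406). Without Ctrl 1 the sign turned, to -0.23. On the median-of-ratios scale the log2 fold change was 1.56 (adjusted p = 0.216).

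Rps27a encodes ubiquitin fused to a ribosomal protein. It was listed at 4.28 and 6.76 FPKM in the controls against 2.95 and 2.60 with Nar. Both Nar values lay below both controls, unlike those of Ubb. Of the 50-base windows of the Rps27a transcript, 72.0% also occur in some of 15 other genes. The level of Rps27a and this contrast with Ubb are therefore uncertain. The log2 fold change was -0.93 (limma adjusted p = 0.104), close to the median of all tested genes, and its sign turned on the median-of-ratios scale, to 0.15.

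The ubiquitin coding units are printed because their likeness bears on how reads can be assigned to Ubb. The coding sequence of Ubb holds 4 ubiquitin units of 228 bases each. The lines give the first 60 bases of each Ubb unit and of the unit of Rps27a, 5′ to 3′, from GENCODE transcripts on GRCm38, with capitals where a base differs from the first Ubb unit.
Ubb unit 1: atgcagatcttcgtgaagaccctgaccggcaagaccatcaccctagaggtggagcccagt
Ubb unit 2: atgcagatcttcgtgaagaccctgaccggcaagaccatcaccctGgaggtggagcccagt
Ubb unit 3: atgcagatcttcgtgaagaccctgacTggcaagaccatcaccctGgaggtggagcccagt
Ubb unit 4: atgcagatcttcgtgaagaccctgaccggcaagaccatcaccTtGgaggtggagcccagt
Rps27a: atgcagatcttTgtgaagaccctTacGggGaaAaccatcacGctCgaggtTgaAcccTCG
Over the full unit, the later Ubb units matched the first at between 95.6% and 99.1% of bases, and the unit of Rps27a at 80.7%. No 50-base stretch of Ubb was found in Rps27a, but 61.0% of the 50-base windows of the Ubb transcript also occurred in 5 other annotated genes. One of these, Gm1821, is listed in the table. It was singled out after its values were seen, at 330.0 FPKM (Ctrl 1) and 910.1 (Ctrl 3) in the controls, and at 708 (Nar 1) and 882 (Nar 3) with Nar, which is between 0.495 and 0.555 times the level of Ubb in each library. How the counting divided reads between Ubb and Gm1821 is not known, so the level of Ubb is uncertain. Its order over the libraries was the same as that of Gm1821, but genes that share reads are not separate observations. Ubb lies on chr11:62551171-62553213 on the plus strand (RefSeq, GRCm38.p6), and its transcript has 2 exons.

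Fbxo7 and Trim58 are ligase components. Fbxo7 is an F-box protein of a cullin ligase that has also been tied to mitophagy, and Trim58 is a ligase of late erythroblasts that acts on the motor protein dynein. Fbxo7 was listed at 4.28 FPKM (Ctrl 1) and 10.99 (Ctrl 3) in the controls, and at 9.37 (Nar 1) and 8.27 (Nar 3) with Nar. Both Nar values lay between the controls, which differed by 2.57 times. The log2 fold change was 0.35 (95% interval -0.90 to 1.61, limma adjusted p = 0.584), it turned to -0.32 without Ctrl 1, and it was 1.45 on the median-of-ratios scale (adjusted p = 0.291). Trim58 was listed at 0.65 FPKM (Ctrl 1) and 1.53 (Ctrl 3) in the controls, and at 0.86 (Nar 1) and 0.80 (Nar 3) with Nar. It had the same order of libraries as Fbxo7, with a control ratio of 2.35. Its log2 fold change was -0.25 (95% interval -1.21 to 0.71, limma adjusted p = 0.613) and turned to 0.74 on the median-of-ratios scale (adjusted p = 0.516). In the RefSeq annotation of GRCm38.p6, Fbxo7 lies on chr10:86020449-86051873 and Trim58 on chr11:58640465-58652404, both on the plus strand.

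Usp15, a deubiquitinase known to act against mitophagy, was listed at 16.2 FPKM (Ctrl 1) and 37.4 (Ctrl 3) in the controls, and at 40.8 (Nar 1) and 28.3 (Nar 3) with Nar. Ctrl 1 was again lowest, and the groups overlapped. The log2 fold change was 0.46 (95% interval -0.85 to 1.77, limma adjusted p = 0.494), the highest of the 8, and 98.0% of all tested genes had a lower one. It turned to -0.14 without Ctrl 1 and was 1.57 on the median-of-ratios scale (adjusted p = 0.268). Its relative Usp4 was listed at 2.58 and 2.33 FPKM in the controls against 2.46 and 2.09 with Nar, and Usp11 at 0.34 and 0.40 FPKM in the controls against 0.08 and 0.18 with Nar. Usp15 therefore held 84.7% and 93.2% of the summed FPKM of the 3 genes in controls and 94.1% and 92.6% with Nar, with overlapping groups (exact permutation p = 0.67). Usp15 lies on chr10:123105006-123197281 on the minus strand (RefSeq, GRCm38.p6).

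As a list, the 8 genes had a median log2 fold change of -0.073, beside -1.07 over all tested genes and -0.88 over the 680 genes whose mean FPKM reached 10. On the median-of-ratios scale the medians were 1.04 for the 8 and -0.061 for all tested genes. Of the 8, 7 lay above the median of all tested genes, and Ulk1 lay below it. On the deposited scale 3 had a positive value (Fbxo7, Ubb and Usp15) and on the median-of-ratios scale 7 did, so the sign turned between these scales for 4 of the 8, Bnip3l, Trim58, Gabarapl2 and Map1lc3b. On the deposited scale the 7 genes other than Ulk1 lay above the median of all tested genes by 0.71 for Map1lc3b to 1.53 for Usp15 on the log2 scale.

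**Figure D3:**
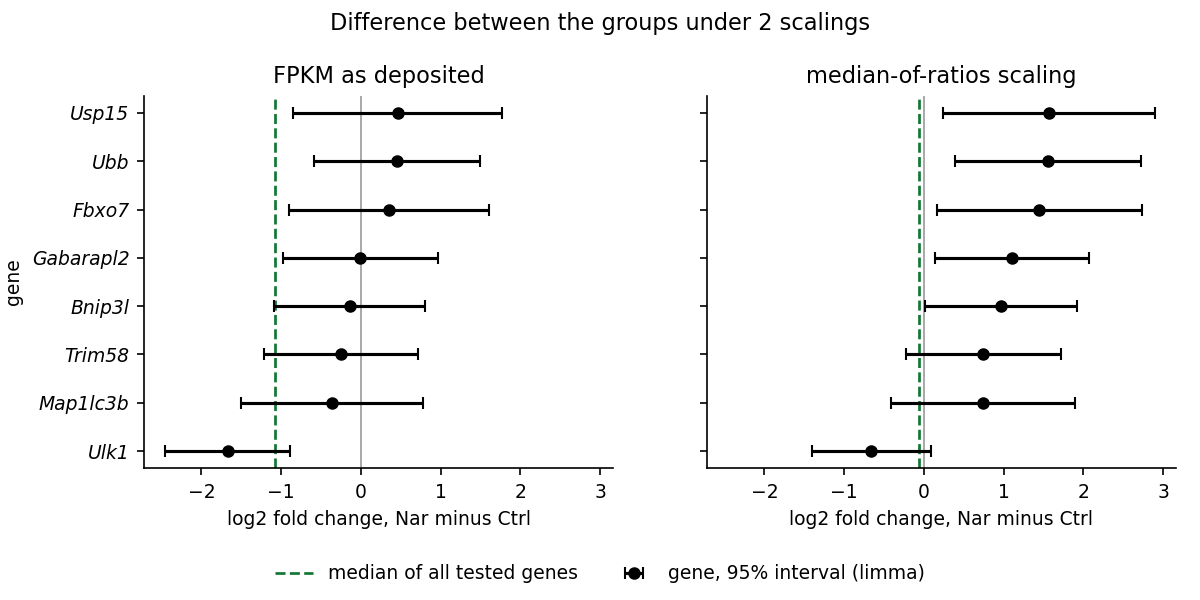
Log2 fold change of Nar against control (horizontal axis) for each gene, with 95% intervals from limma, on the deposited scale (left) and on the median-of-ratios scale (right); the dashed line is the median of all tested genes, -1.07 on the left and -0.061 on the right. Apart from Ulk1, each gene lies to the right of the dashed line in both panels.

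**Figure D4:**
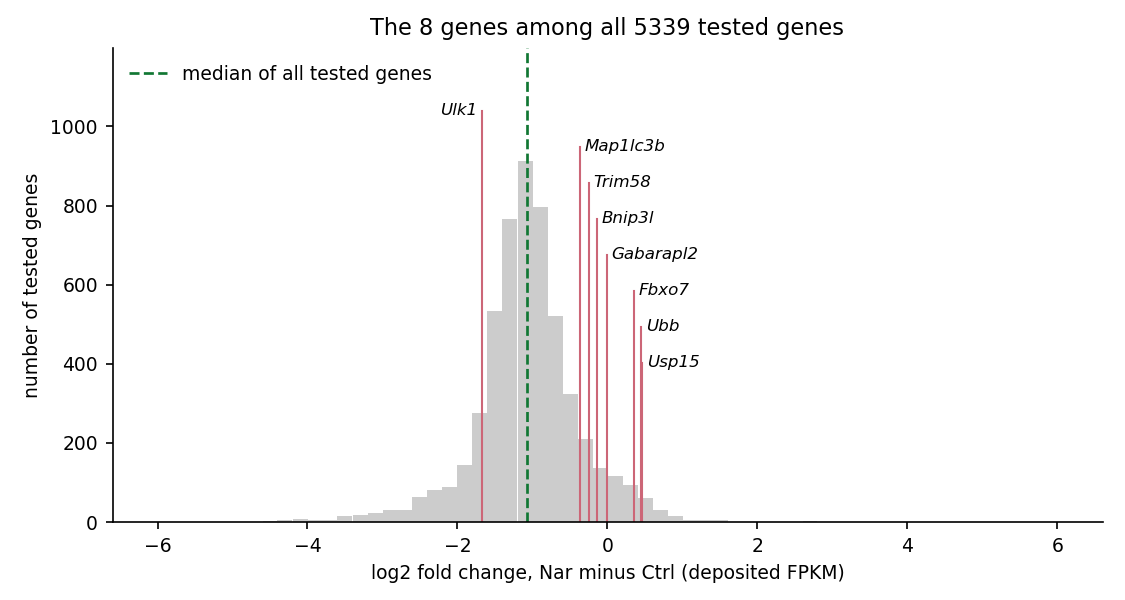
Number of tested genes (vertical axis) by log2 fold change of Nar against control on the deposited scale (horizontal axis), with the 8 genes marked by lines whose height carries no value. Ulk1 (-1.67) lies left of the median of all tested genes (-1.07), and the other 7 lie to its right, between -0.36 and 0.46.

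The control libraries differed from each other in these genes. Ctrl 3 exceeded Ctrl 1 by more than 2-fold for 4 of them, Ubb, Fbxo7, Trim58 and Usp15, as it did for 17.0% of all tested genes and for 7 of the 19 tested erythroid markers. The ratio of Ctrl 3 to Ctrl 1 was 1.45 for Map1lc3b, 1.28 for Ulk1, 1.20 for Bnip3l and 0.997 for Gabarapl2, where its median was 1.10 over all tested genes and 1.72 over the erythroid markers. The ratio of Nar 3 to Nar 1 ran from 0.692 for Usp15 to 1.20 for Ubb, with a median of 0.821 over all tested genes. For Bnip3l (0.745) and Gabarapl2 (0.813) the Nar libraries lay farther apart than the controls. Summed platelet markers were also higher in Ctrl 3, at 2465 FPKM, than in Ctrl 1 (758), Nar 1 (714) and Nar 3 (494), and all 10 of these markers were above 0 in every library. Their part in these ratios was not tested.

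The erythroid content of the samples was checked with 23 markers, of which 22 had values. Their summed level was 9019 and 11002 FPKM in controls and 11065 and 10182 FPKM with Nar, and none was at 0 in a library. Limma called 0 of the 19 tested, with a median log2 fold change of 0.37, which was 0.048 without Ctrl 1 and 0.85 without Ctrl 3. When the libraries were instead scaled so that these markers were level, a scaling chosen after the data were seen, the 8 genes had a median log2 fold change of -0.58 and all of them were negative, between -0.046 for Usp15 and -2.13 for Ulk1. The median of all tested genes was -1.54 there. Ulk1 passed on that scale (limma adjusted p = 0.0165), where 45% of all tested genes were called lower, and the other 7 did not, Map1lc3b being nearest (-0.87, adjusted p = 0.067). On the deposited scale, B cell and T cell markers gave 0 calls among 7 and 8 tested genes. Natural killer cell markers gave 2 lower calls among 6 there (33.3%, below the 39.6% of all tested genes).

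Other genes of the same processes were taken from 5 lists written by function. Of 34 further autophagy genes, 24 could be tested, and 7 were called lower (29.2%, where 39.6% of all tested genes were) and 0 higher, with a median log2 fold change of -0.95. The lowest was Atg101, a subunit of the Ulk1 complex, listed at 1.70 and 1.13 FPKM in the controls against 0.21 and 0.11 with Nar (log2 fold change -2.54). It reached the filter on mean FPKM through the controls alone, so the difference is given with no test. The highest was Atg4a, a protease that processes ATG8 proteins, at 3.71 and 8.93 FPKM in the controls against 11.3 and 6.47 with Nar (log2 fold change 0.56, limma adjusted p = 0.397). Of the mitophagy receptors and adapters, 2 of 12 tested genes were called lower (16.7%, also below the 39.6% of all tested genes), with a median of -0.70. Tbk1, a kinase that activates autophagy receptors, was lowest (log2 fold change -1.42), and it too reached the filter through the controls alone. Sqstm1, the ubiquitin-binding adapter p62, was highest in that list, at 16.1 and 32.7 FPKM in the controls against 35.9 and 22.5 with Nar (log2 fold change 0.31, limma adjusted p = 0.637).

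Among genes of the ubiquitin ligase machinery, 5 of 15 tested were called lower (33.3%, below the share of all tested genes) and 0 higher, with a median of -0.93. Cul1, a cullin scaffold, fell by 1.58 (limma adjusted p = 0.0208). Trim10, a tripartite-motif protein of erythroid cells, stood at the other end, at 11.2 and 21.2 FPKM in the controls against 33.0 and 25.1 with Nar; both Nar values exceeded both controls, but its log2 fold change of 0.90 did not pass (limma adjusted p = 0.175). Deubiquitinases were called lower for 6 of 11 tested genes (54.5%, above the 39.6% of all tested genes), with a median of -1.18 beside -1.07 over all tested genes, from Usp8 (-1.47, which also reached the filter through the controls alone) to Usp25 (0.13, limma adjusted p = 0.847). As given beside Ulk1, neutrophil and monocyte markers were lower with Nar as well, and their part in the counts of these lists was not tested. In the list of other reticulocyte maturation genes, 0 of 8 tested were called by limma, and the median was -0.17. Its lowest was Gata1, an erythroid and megakaryocytic transcription factor, at 4.23 and 12.6 FPKM in the controls against 3.42 and 3.06 with Nar (log2 fold change -1.15, limma adjusted p = 0.112). Over the union of the lists 20 of 68 tested genes were called lower on the deposited scale, against 39.6% of all tested genes, and 0 were called on the median-of-ratios scale. Of these 20, 11 had a Nar mean under the filter of 0.5 FPKM, so the counts of the lists are a description; this held for 0 of the 8 genes. The lowest gene named from each list kept a negative sign there, at -1.68 for Atg101, -0.48 for Tbk1, -0.54 for Cul1, -0.52 for Usp8 and -0.064 for Gata1.

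The promoters were searched for motifs of factors that act in red cell precursors or in stress. RefSeq promoter windows (GRCm38.p6) of 250 bases before a start were found for 7 of the 8 genes, in 9 windows. The GATA motif, searched on both strands as AGATAA or AGATAG or TGATAA or TGATAG, occurred for 1 of the 7, Trim58, and in 26.5% of the 32851 mouse windows. The KLF motif CCNCNCCC occurred for 5 of the 7 (Ulk1, Gabarapl2, Map1lc3b, Usp15 and Ubb) and in 45.9% of all windows, and its matches can overlap each other. The E-box CACGTG and the heat shock motif GAANNTTC occurred for 0 of the 7, and in 6.02% and 6.69% of all windows. A match is a match of letters only, and no binding was measured here.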

How the data were processed

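Messenger RNA was purified from mouse blood with oligo(dT) beads and sequenced, and 2 Ctrl and 2 Nar libraries were analysed. The authors deposited 1 FPKM value per gene and library, given to 2 decimals. The submitters' processing notes name TopHat2, Cufflinks and the build GRCm38, whereas the methods of the study name bowtie-2; the annotation is not given in the sources used here. The depth is unknown, and counting error could not be computed. Groups came from the labels, and 0 columns of values were left unmapped.

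The 5339 genes whose mean FPKM reached 0.5 were tested on log2(FPKM + 0.1) with limma 3.58.1 (lmFit, eBayes with a trend) in R 4.3.3, with Benjamini-Hochberg adjustment and a threshold of 0.05. Limma pools the spread between libraries over genes, so each of its p-values rests partly on the spread of other genes. The pseudocount understates changes of low genes. DEGseq, used by the study, needs read numbers. The limma steps were tested on simulated data without a shift shared by most genes, unlike these data, so that run checks the code only. Family shares were compared by exact two-sided permutation. Genes named were the 8, their families, the highest and lowest tested gene of each pathway list, and the 5 genes nearest to Bnip3l. Some of the genes under that rule, and family shares that need them, are not reported here. The 8 genes and all lists were chosen with earlier results of these data known. Shared sequence was counted over 50-base windows of GENCODE transcripts. The alternatives were other scalings (median-of-ratios, haemoglobin removed, TPM, erythroid markers), pseudocounts of 1 and 0.01, no filter or a mean of at least 5, no trend, a 2-fold minimum, replicate blocks and each library left out. Figures used matplotlib 3.10.9 (Python 3.11.15).

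The groups share the replicate numbers 1 and 3, which come only from the labels. Over the tested genes the deviations of same-numbered libraries from their group means had a correlation of -0.15, so the numbers were not taken to pair the libraries.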

Additional observations from a re-analysis of the deposited data

How the results depend on the processing

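Ulk1 was called by limma on the deposited scale and lost that call under median-of-ratios scaling, with haemoglobin removed, without the filter on low values and with each library left out, so that 0 of the 8 genes were called in each; at a mean of at least 5 it was not tested, and 0 of the 6 left were called. It kept the call under the other alternatives, with adjusted p from 0.00267 to 0.027. Its log2 fold change was -0.97 at a pseudocount of 1; where the call was lost it was -0.66 under median-of-ratios scaling, -1.26 with haemoglobin removed, -1.67 without the filter and -1.84 to -1.50 with a library left out. Over all genes 25 were called under median-of-ratios scaling, 256 with haemoglobin removed, 117 at a mean of at least 5, 0 without the filter (4978 at an unadjusted p under 0.05) and 0 to 259 with a library left out (0 without either control); in the pathway lists the counts were 0, 3, 0, 0 and 0 to 2. Leaving out a library leaves fewer samples by construction; for the other alternatives the cause was not tested.

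Under median-of-ratios scaling the sign turned for Bnip3l (0.97), Trim58 (0.74), Gabarapl2 (1.10) and Map1lc3b (0.74), the median of the 8 became 1.04 and that of the erythroid markers 1.45. With haemoglobin removed the same genes turned, to 0.42, 0.29, 0.56 and 0.20, and the median to 0.49. At a mean of at least 5 the median was 0.17. With the erythroid markers level it was -0.58, and Fbxo7 (-0.15), Ubb (-0.062) and Usp15 (-0.046) turned. With a library left out the values ran from -0.35 to 0.073 for Bnip3l, -0.32 to 1.02 for Fbxo7, -0.81 to 0.31 for Trim58, -0.23 to 1.12 for Ubb, -0.16 to 0.14 for Gabarapl2, -0.63 to -0.095 for Map1lc3b and -0.14 to 1.06 for Usp15, and the median from -0.29 to 0.15. The erythroid marker median ran from 0.048 to 0.85 with a library left out and was 0.93 with haemoglobin removed.

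With the replicate block limma called 1815 genes, 15 in the pathway lists and 1 of the 8; with the numbers crossed, added once the values were known, it called 3233, 32 and 1. The block changed no other call among the 8. Rounding to 2 decimals limits the values of Trim58, Ulk1 and the untested genes, and the depth behind them is unknown.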

Other observations

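Among the 22 erythroid markers with values, both Nar libraries lay above both controls for 5, Ank1, Kel, Tspo2 and Bpgm among them. They lay below both for 3, Epor, Gata1 and Ermap. Over all tested genes these orders held for 1.27% and 78.3% on the same deposited scale. Bpgm, the enzyme that makes the haemoglobin ligand bisphosphoglycerate, was listed at 1544 and 1862 FPKM in the controls against 2352 and 1959 with Nar (log2 fold change 0.34, limma adjusted p = 0.353). Alas2, the first enzyme of haem synthesis in red cell precursors, was listed at 6055 and 6991 FPKM in the controls against 6492 and 6487 with Nar. Epor, the erythropoietin receptor, was listed at 0.42 and 1.43 FPKM in the controls against 0.38 and 0.20 with Nar (log2 fold change -1.23). It reached the filter on mean FPKM through the controls alone, so its difference is given with no test. Ermap was too low to be tested, and limma called 0 of the 19 tested markers.

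Pink1, a kinase that marks damaged mitochondria, was listed at 15.3 FPKM (Ctrl 1) and 58.0 (Ctrl 3) in the controls, and at 24.4 (Nar 1) and 34.0 (Nar 3) with Nar, so that both Nar values lay between the controls. It was picked out after its values were seen.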
